A study of Mus musculus with 14 samples.

Results

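Interferon-induced genes and MHC class I genes were followed in mouse brain through 9 genes. The interferon-induced genes are Ifit1, Ifit3, Irf7, Isg15, Bst2 and Ifitm3, and the class I genes are B2m, H2-K1 and H2-D1. They were taken by name, 9 of 23375 genes in the deposited table, and all 9 were among the 14322 genes that passed the filter on low values and were tested. The study measured poly(A) RNA from the brains of mice made with haploid embryonic stem cells, in 14 libraries. The labels give no strain, sex or adult age, and they do not tie replicates to separate animals. The p-values below therefore measure spread among these libraries only, and that spread may be technical.

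The libraries form 7 groups of 2. KO2 mice lack the H19-DMR and the IG-DMR, which are differentially methylated regions that control imprinted genes, and were sampled late in gestation (E19.5) and as adults. KO7 mice were sampled at E19.5 and lack the Gnas-DMR, Peg3-DMR, Kcnq1-DMR and Snrpn-DMR as well as the Igf2r-DMR, Grb10-DMR and Nespas-DMR. KO3 mice were sampled as adults and lack the Rasgrf1-DMR besides both KO2 regions. Wild-type brains form an E19.5 group and adult sets 1 and 2, a division given by the titles. Background knowledge of the study, which the labels do not state, is that KO2 and KO3 mice carry maternal genomes alone and KO7 mice paternal genomes alone. Deletion and parental origin cannot be told apart in any comparison with wild type. The labels do not say how many animals or stem cell clones stand behind a group.

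Type I interferon acts through a cell-surface receptor, and its signal reaches interferon-stimulated response elements in promoters, which switch on antiviral genes. MHC class I molecules carry peptides from inside the cell to its surface, where T cells read them, and their heavy chains need the light chain encoded by B2m. In brain, class I is known both for antigen display by glial and endothelial cells and for roles at synapses, and microglia are among the main responders to interferon.

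The response element core, GAAA followed by any 2 bases and GAAA again (TTTC, any 2 bases and TTTC when it lies on the opposite strand), was searched on both strands in windows of 250 bases before to 50 bases after each annotated start, from RefSeq (build GRCm38.p6), and all 9 genes matched a window. Overlapping copies were counted separately. The 6 stretches with a match are shown because the core is the sequence that most of the interferon-induced genes share, and it is written in capitals.
Ifit1: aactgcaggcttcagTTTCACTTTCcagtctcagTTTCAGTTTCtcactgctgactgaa
Ifit3: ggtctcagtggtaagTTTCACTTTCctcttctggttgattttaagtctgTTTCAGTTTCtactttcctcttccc
Isg15: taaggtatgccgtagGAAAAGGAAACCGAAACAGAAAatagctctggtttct
Bst2: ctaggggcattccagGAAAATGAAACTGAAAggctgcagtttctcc
Ifitm3: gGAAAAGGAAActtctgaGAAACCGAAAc
B2m: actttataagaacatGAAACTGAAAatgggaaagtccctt
Each is written 5′ to 3′ on the strand of its gene. Ifit1 lies at chr19:34640770-34640828 and Ifit3 at chr19:34583358-34583431, both on the plus strand, and Isg15 at chr4:156200860-156200911 on the minus strand. Bst2 lies at chr8:71537572-71537617 and Ifitm3 at chr7:141010715-141010743, both minus, and B2m at chr2:122147533-122147572, plus.

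Ifit1 and Ifit3 each had 2 copies, both in the TTTC sense, with first bases 104 and 85 bases before the start in Ifit1 and 156 and 122 bases before it in Ifit3. Isg15 had 3 copies that overlap in a run beginning 78 bases before the start, and Bst2 had 2 that overlap, beginning 130 bases before it. The 2 copies of Ifitm3 begin at bases 3 and 20 after the start, and the single copy of B2m begins 139 bases before it. In all, 5 of 6 interferon-induced genes and 1 of 3 class I genes held the core, against 943 of 27025 genes with a window (3.49%). Among other interferon-stimulated genes with a window, 20 of 41 held it (48.8%). The Irf7, H2-K1 and H2-D1 windows did not hold these letters, which says nothing else about them, and a match is a description of sequence, not a bound site.

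The H2-K1 and H2-D1 promoters are shown beside each other because these genes are close copies, and reads can be shared between them. Capitals mark the base at which the 80-base stretches differ.
H2-K1: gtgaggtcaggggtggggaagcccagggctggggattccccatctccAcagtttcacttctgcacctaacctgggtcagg
H2-D1: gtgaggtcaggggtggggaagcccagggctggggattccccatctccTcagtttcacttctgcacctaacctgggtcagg
The first is at chr17:34000409-34000488, minus strand, and the second at chr17:35262893-35262972, plus strand. The windows were set at the ungapped offset with the most matching bases, where 176 of 240 aligned bases matched (73.3%). The 80-base stretch was then picked as the most alike, so its match at 79 of 80 bases is a maximum. It lies before both annotated starts and does not measure shared reads. How the authors' counting divided reads between H2-K1, H2-D1 and other class I copies is not given in the sources used here. The same holds for Ifit3 with its copy I830012O16Rik and for Ifitm3 with Ifitm1 and Ifitm2, so levels of these genes are uncertain to that extent.

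Values are FPKM, fragments scaled to transcript length and library, and read depth is unknown. Between 12701 and 13398 genes per library reached 1 FPKM. Several libraries stand apart. In both KO3 libraries and both of wild-type set 2, 9994 genes were listed at 0, and no gene had a highest value between 0 and 1.02 FPKM, so a 0 there may be a removed low value. Irf7 is listed at 0 in all 4 of these libraries. The second adult KO3 library had a summed level of 7 neutrophil and monocyte markers of 791 FPKM, against 29.9 FPKM in the first. At E19.5, Xist, the RNA of the inactive X, had 0.0159 and 0.0402 FPKM in KO7, against 117 and 106 FPKM in wild type, and the Y-linked Ddx3y had 7.72 and 7.07 FPKM in KO7 and 0 in both wild-type libraries. Sex and genotype therefore cannot be told apart in that comparison. Xist had 1.498 FPKM in the first E19.5 KO2 library and 84.0 FPKM in the second.

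The library that bears most on the interferon-induced genes was the first of adult wild-type set 1, which had the highest level of all 14 libraries for 6 of the 9 genes. Ifit1, which binds viral RNA lacking host cap methylation, had 6.27 FPKM there and 0.937 FPKM in its partner, a 6.69-fold difference. Irf7, the transcription factor that amplifies type I interferon production, had 8.55 and 1.01 FPKM, an 8.43-fold difference. Isg15, a ubiquitin-like protein that is joined to other proteins, had 14.999 and 2.91 FPKM (5.16-fold), and Bst2, which tethers budding virions to the cell surface, had 21.96 and 4.45 FPKM (4.94-fold). Ifit3, a partner of Ifit1, had 14.05 and 3.19 FPKM (4.41-fold), and Ifitm3, which blocks fusion of entering viruses in endosomes, had 90.4 and 29.4 FPKM (3.08-fold). For all 6 the first library lay above all 13 others. The partner lay within the range of the remaining 6 adult libraries for Isg15, Bst2 and Ifitm3. It lay below that range for Ifit1 and Ifit3, whose lowest values there were 1.20 and 3.55 FPKM. For Irf7, 4 of those 6 libraries are listed at 0, which may be removed low values. The partner lay below the adult KO2 libraries, which had 1.27 and 1.84 FPKM of Irf7.

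The class I genes, B2m and the heavy chain genes H2-K1 and H2-D1, differed less between these libraries. B2m had 154 and 84.0 FPKM in the first and second library of set 1 (1.84-fold), H2-K1 8.58 and 7.81 FPKM (1.10-fold), and H2-D1 20.04 and 18.3 FPKM (1.10-fold). H2-K1 and H2-D1 were thus close to equal in the same libraries in which Irf7 differed most. Of 40 other interferon-stimulated genes tested, 37 were higher in the first library, 32 had there the highest value of all 14 libraries (80% of the list, against 6.53% of all tested genes), and 7 were more than 1 log2 unit higher, which 0.37% of all tested genes were. These 7, picked by that difference after their values were seen, were Ifi27l2a, Rtp4, Lgals9, Gbp3, Oasl2, Xaf1 and Lgals3bp. Rtp4, a chaperone of G protein-coupled receptors that interferon induces, had 5.36 FPKM in the first library, 0.920 FPKM in the second and at most 1.44 FPKM in the 13 others. Across all tested genes the pair correlated at r = 0.979, inside the range of 0.964 to 0.983 over the 7 groups. The summed level of 14 microglial markers was 442 and 379 FPKM in the first and second library, that of 7 neutrophil and monocyte markers 85.7 and 29.9 FPKM, and that of 10 lymphocyte markers 5.63 and 5.18 FPKM. Their part in the difference was not tested.

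**Figure D1:**
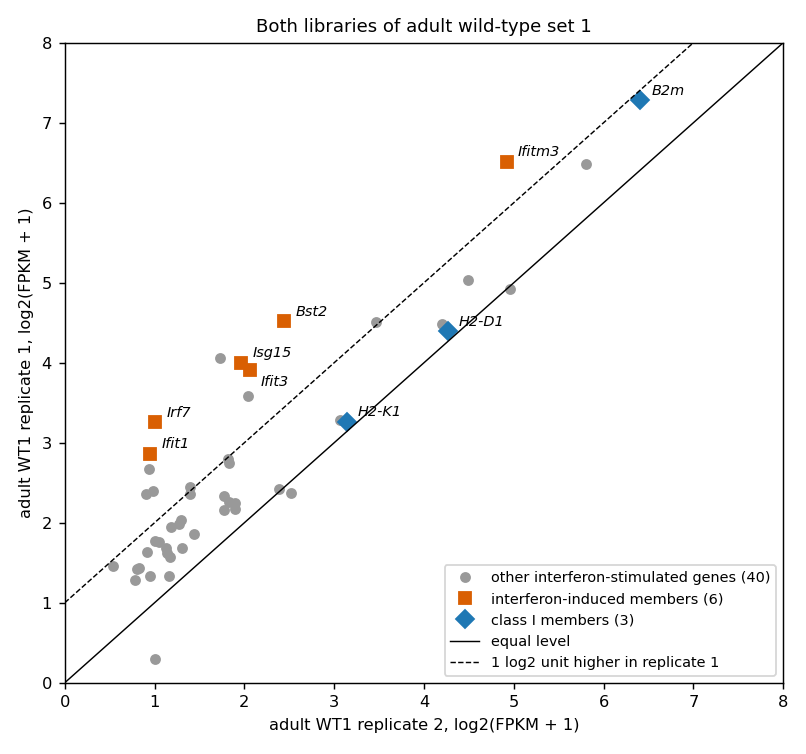
Levels in the first library of adult wild-type set 1 (vertical axis) against the second (horizontal axis), both as log2(FPKM + 1), for 6 interferon-induced genes (squares), 3 class I genes (diamonds) and 40 other interferon-stimulated genes (circles). All 6 squares lie above the dashed line that marks 1 log2 unit, while H2-K1 and H2-D1 lie near the line of equal level.

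**Figure D2:**
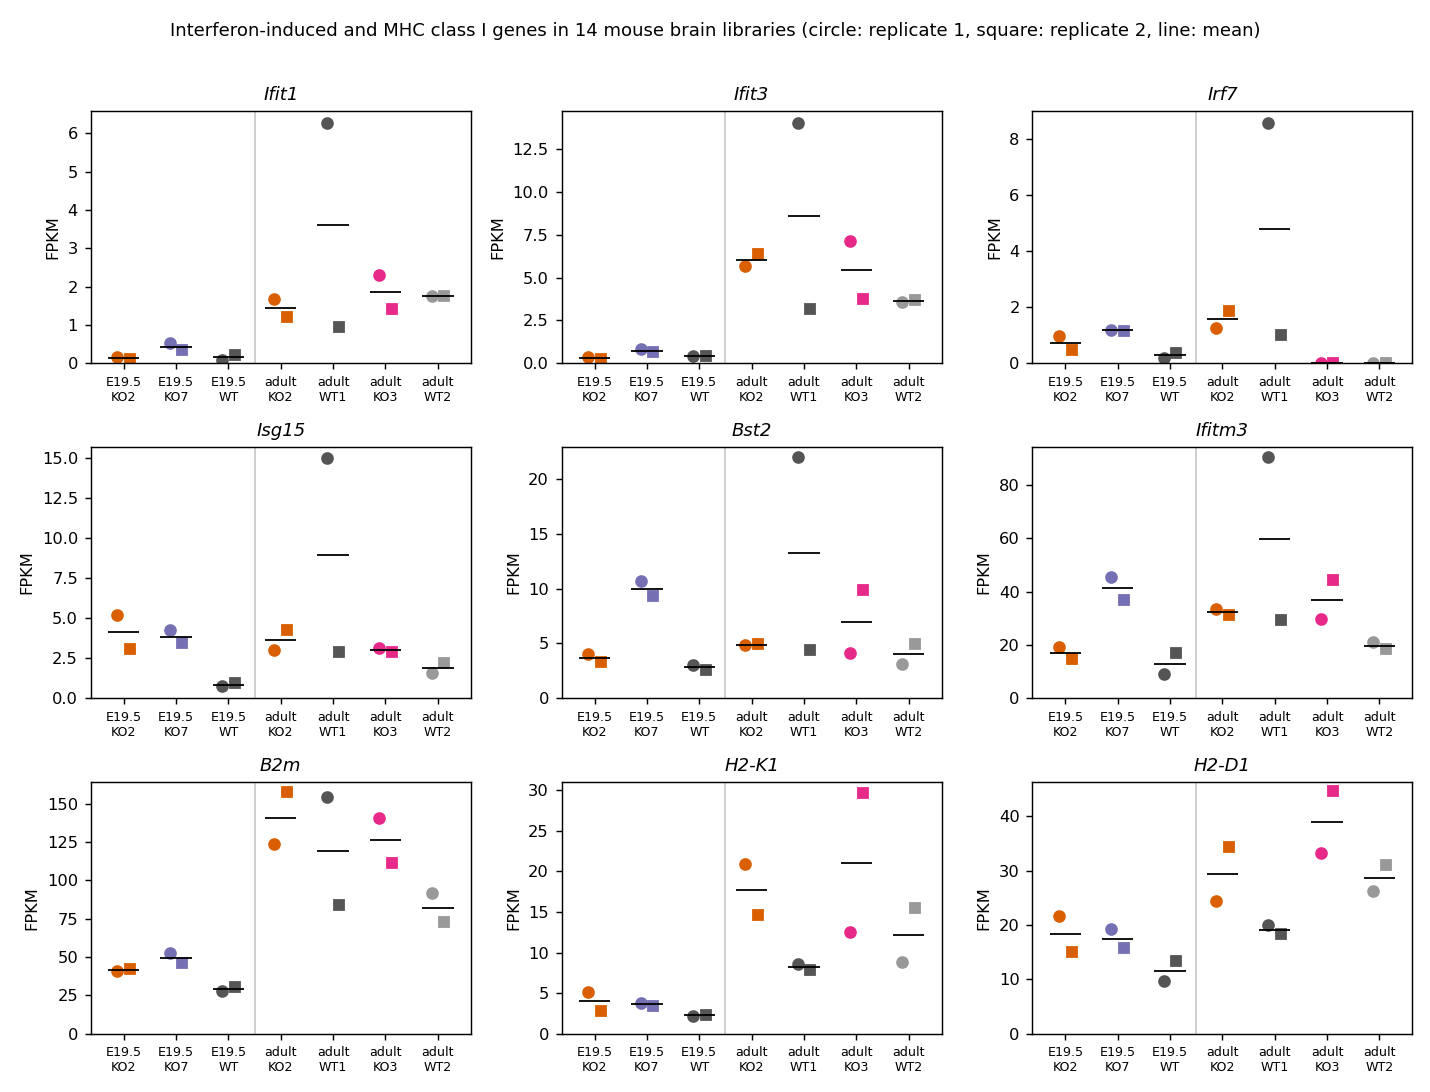
FPKM of the 9 genes in all 14 libraries, 1 panel per gene, with a circle for replicate 1, a square for replicate 2 and a line at the group mean. Each vertical axis has its own range and starts at 0, and the grey line divides E19.5 from adult groups.

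At E19.5 the lowest, median and highest of 6 libraries were 28.2, 41.6 and 52.9 FPKM for B2m, 9.68, 15.4 and 21.7 FPKM for H2-D1, and 2.19, 3.13 and 5.15 FPKM for H2-K1. The order B2m, H2-D1, H2-K1 held in all 14 libraries. Ifitm3 was the most abundant interferon-induced gene, with 9.17, 18.1 and 45.5 FPKM, followed by Bst2 with 2.61, 3.67 and 10.7 FPKM and Isg15 with 0.758, 3.25 and 5.19 FPKM. The ranges of Bst2 and Isg15 overlap. Irf7, Ifit3 and Ifit1 were low, with medians of 0.710, 0.409 and 0.194 FPKM. Among the 8 adult libraries the median was 117 FPKM for B2m, 28.6 FPKM for H2-D1, 30.5 FPKM for Ifitm3 and 13.6 FPKM for H2-K1. The adult medians of Bst2, Ifit3 and Isg15 were 4.88, 4.72 and 2.98 FPKM, and that of Ifit1 was 1.71 FPKM. Irf7 is listed at 0 in 4 adult libraries, and the other 4 had 1.27 and 1.84 FPKM (KO2) and 8.55 and 1.01 FPKM (wild-type set 1). Because FPKM is scaled to length, these levels can be set against each other, but the ranges of Bst2, Ifit3 and Isg15 overlap in adults.

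Adult wild-type set 1 was compared with E19.5 wild type, which asks how the genes differ between late gestation and the mature brain. All 9 genes rose, 6 interferon-induced and 3 class I, against 21.9% of all tested genes that were higher and 56% that passed in either direction (limma on log2(FPKM + 1), adjusted p under 0.05 over all tested genes). Fitted on the 4 compared libraries alone, 6 passed, against 24.6% of all tested genes that were higher, and Ifit1 (adjusted p = 0.0580), Irf7 (0.0799) and Bst2 (0.0926) did not. With both adult wild-type sets as 1 group, Irf7 (0.71, adjusted p = 0.390) and Bst2 (0.96, adjusted p = 0.139) did not pass. Log2 changes are on that scale, which understates the change of low genes, and the median over all tested genes was -0.15. In bulk tissue, more cells of a type and more RNA per cell cannot be told apart.

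Among class I genes, B2m had 154 and 84.0 FPKM in adult wild type, against 28.2 and 30.2 FPKM at E19.5 (log2 change 1.93, SE 0.24, adjusted p = 5.31e-05). H2-K1 had 8.58 and 7.81 FPKM in adults, against 2.19 and 2.34 FPKM at E19.5 (1.49, SE 0.36, adjusted p = 0.00439). H2-D1 had 20.04 and 18.3 FPKM in adults, against 9.68 and 13.3 FPKM at E19.5 (0.70, SE 0.23, adjusted p = 0.0199). All 9 genes had both adult libraries above both E19.5 libraries, as 34.2% of all tested genes did. The level of H2-K1 relative to H2-D1 also differed between stages, with 0.335 to 0.860 FPKM of H2-K1 per FPKM of H2-D1 in adult libraries and 0.175 to 0.238 in E19.5 libraries, so the ranges did not overlap. That ratio was not tested and is the one most exposed to shared reads.

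Among interferon-induced genes, Ifit3 had 14.05 and 3.19 FPKM in adult wild type, against 0.395 and 0.422 FPKM at E19.5 (log2 change 2.49, SE 0.44, adjusted p = 0.000573). Isg15 had 14.999 and 2.91 FPKM in adults, against 0.758 and 0.941 FPKM at E19.5 (2.098, SE 0.48, adjusted p = 0.00294). The changes of the other 4 were 1.97 for Ifitm3, 1.78 for Irf7, 1.71 for Ifit1 and 1.55 for Bst2, with adjusted p from 0.00199 to 0.0254. The adult libraries were far apart from each other for these 6, with the first high and the second nearer to E19.5. Where 1 library of a pair is left out here and below, its group has 1 library, which is assumed to vary like the other groups. Without the first adult library, 7 of 9 genes passed, against 17.4% of all tested genes that were higher. Ifit3 then had a change of 1.57, Ifitm3 of 1.17, Isg15 of 1.08, Ifit1 of 0.76 and Irf7 of 0.66, while Bst2 (0.51, adjusted p = 0.287) and H2-D1 (0.64, adjusted p = 0.0949) did not pass. H2-D1 also missed the threshold when the second adult library (adjusted p = 0.0504) or the first E19.5 library (0.163) was left out. Bst2 missed it without either E19.5 library (0.0728 and 0.0989), and Irf7 without the first (0.0560). Without the first adult library B2m and H2-K1 had changes of 1.496 and 1.43 and passed.

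**Figure D3:**
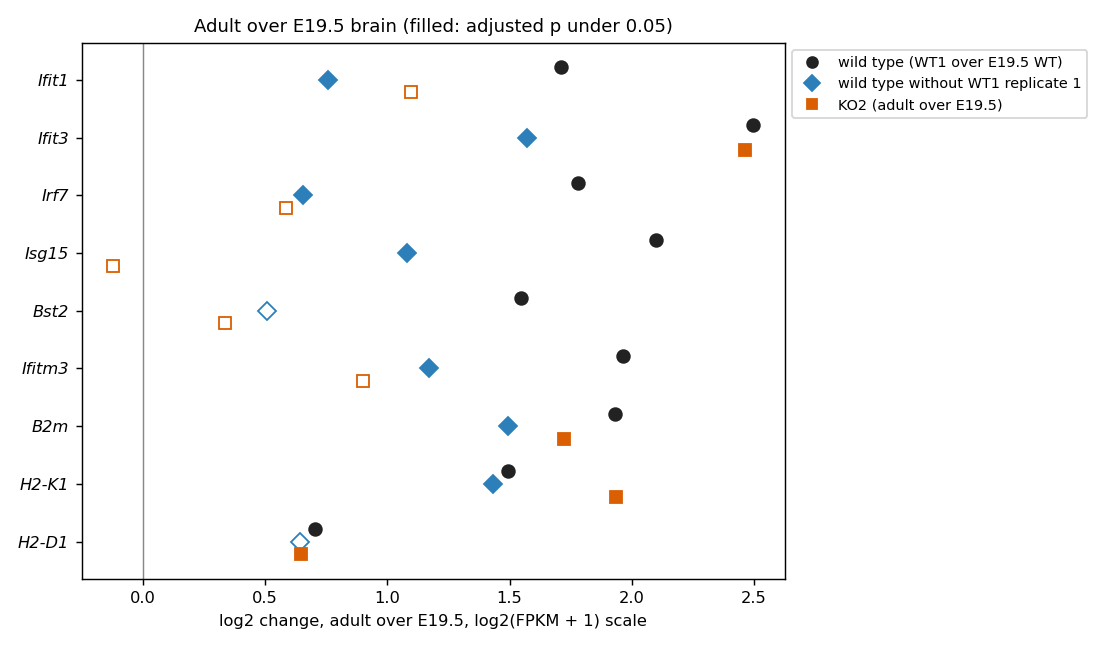
Log2 change, adult over E19.5, on the log2(FPKM + 1) scale for the 9 genes in wild type (circles), in wild type without the first library of set 1 (diamonds) and in KO2 (squares), filled where the adjusted p is under 0.05. Ifit3, B2m and H2-K1 are filled in all 3 fits, and Isg15 is at -0.12 in KO2 and at 2.098 in wild type.

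In KO2 brains, 4 of 9 genes rose with stage, against 20.7% of all tested genes that were higher and 49.3% that passed in either direction. Ifit3 had 5.71 and 6.39 FPKM in adult KO2, against 0.341 and 0.218 FPKM in E19.5 KO2 (log2 change 2.46, SE 0.44, adjusted p = 0.000807). B2m had 124 and 158 FPKM in adults, against 41.1 and 42.2 FPKM at E19.5 (1.72, adjusted p = 0.000164), H2-K1 20.9 and 14.6 against 5.15 and 2.80 FPKM (1.94, adjusted p = 0.00109), and H2-D1 24.4 and 34.3 against 21.7 and 15.1 FPKM (0.65, adjusted p = 0.0331). H2-D1 was lost when the second E19.5 library (adjusted p = 0.256) or the second adult library (0.242) was left out. For 8 of the 9, all but Isg15, both adult libraries lay above both E19.5 libraries, as for 34.5% of all tested genes. Isg15 had 3.05 and 4.27 FPKM in adult KO2, against 5.19 and 3.07 FPKM in E19.5 KO2, so its groups overlapped (-0.12, adjusted p = 0.855). Irf7, Bst2, Ifitm3 and Ifit1 had changes of 0.59, 0.34, 0.90 and 1.10 with adjusted p from 0.0542 to 0.619. Without the first adult wild-type library, whose spread enters the shared estimate, 7 of 9 passed, against 19.9% of all tested genes that were higher, with Ifit1, Irf7 and Ifitm3 added.

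Other genes of the pathway, from lists compiled for this purpose, are read against the 21.9% of all tested genes that were higher and the 34.1% that were lower in adult wild type. The counts of loading, receptor, signalling and sensing genes below are not shown to differ from those shares. Tap1, Psmb8 and Psmb9 are on both the interferon-stimulated and the loading list and are counted in each. Of 40 other interferon-stimulated genes tested, 28 rose and 1 fell in adult wild type, with a median log2 change of 0.80. The smallest p-values were those of Ifi27l1 (2.41), Ly6e (1.66), Tor3a (1.31) and Ifi35 (0.92). Among 9 other class I genes 5 rose and Cd1d1, which presents lipids, fell (-1.75, adjusted p = 1.11e-05). H2-T23, which encodes the ligand of the NKG2A receptor, had 14.4 and 6.87 FPKM in adults, against 1.36 and 1.89 FPKM at E19.5 (2.07, adjusted p = 0.000907). Of 16 loading genes 4 rose and 4 fell. Tap2, a subunit of the transporter that moves peptides into the endoplasmic reticulum, had 4.92 and 4.20 FPKM in adults, against 0.676 and 1.16 FPKM at E19.5 (1.54, adjusted p = 3.07e-05), and the immunoproteasome subunits Psmb8 and Psmb9 rose by 1.55 and 1.48 on the log2 scale. The proteasome activator subunit Psme1 fell, with 40.4 and 40.1 FPKM in adults against 101 and 107 FPKM at E19.5 (-1.35, adjusted p = 0.000248).

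Interferon genes themselves were at or near 0: 11 were listed, none passed the filter, and their summed level was at most 0.109 FPKM in a library. Among 5 tested receptor genes, Ifngr2 (-1.30, adjusted p = 1.98e-05) and Ifnar1 (-1.05, adjusted p = 0.000408), chains of the interferon gamma and type I interferon receptors, fell in adult wild type, and Ifngr1 rose (0.71, adjusted p = 0.00181). Ifnar1 had 7.15 and 6.53 FPKM in adults, against 15.8 and 14.6 FPKM at E19.5. Of 15 signalling genes 6 rose, among them the transcription factors Irf5 (1.09), Irf1 (1.15) and Irf2 (0.89), and the kinase Jak2 fell (-1.01, adjusted p = 0.000256). Of 9 nucleic acid sensing genes 5 rose, led by Unc93b1 (1.35), the chaperone of endosomal Toll-like receptors, Tlr3 (1.56), a sensor of double-stranded RNA, and Tmem173 (0.95), which encodes STING, while Rnaseh2b fell (-1.07). All 14 microglial markers rose with stage, and their summed level was 442 and 379 FPKM in adults, against 101 and 113 FPKM at E19.5. Astrocyte markers rose in 7 of 8 cases and oligodendrocyte markers in 7 of 8, while of 5 perivascular macrophage markers 4 fell. The part of these cells in the rise was not tested.

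At E19.5, KO7 was compared with wild type. None of the 9 passed in the fit of all 14 libraries, against 4.45% of all tested genes, but both KO7 libraries lay above both wild-type libraries for all 9 genes, against 30.7% of all tested genes. Ifitm3 had 45.5 and 36.9 FPKM in KO7, against 9.17 and 16.9 FPKM in wild type (log2 change 1.64, 95% interval 0.72 to 2.56, adjusted p = 0.0510). Bst2 had 10.7 and 9.31 FPKM in KO7, against 3.06 and 2.61 FPKM in wild type (1.52, interval 0.37 to 2.67, adjusted p = 0.126). Isg15 had 4.27 and 3.44 FPKM in KO7, against 0.758 and 0.941 FPKM in wild type (1.39, interval 0.35 to 2.43, adjusted p = 0.124). For each of these 3 the KO7 libraries lay near each other and above both wild-type libraries.

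Irf7 had 1.19 and 1.15 FPKM in KO7, against 0.187 and 0.375 FPKM in wild type (0.76, adjusted p = 0.406). B2m had 52.9 and 45.9 FPKM in KO7, against 28.2 and 30.2 FPKM in wild type (0.74, interval 0.20 to 1.27, adjusted p = 0.112). H2-D1 had 19.2 and 15.7 against 9.68 and 13.3 FPKM (0.57, adjusted p = 0.174), and H2-K1 3.79 and 3.45 against 2.19 and 2.34 FPKM (0.50, adjusted p = 0.454). Ifit1 and Ifit3 stayed under 1 FPKM in both groups, with changes of 0.32 and 0.30. At an unadjusted p under 0.05, 5 genes passed (Isg15, Bst2, Ifitm3, B2m and H2-D1), against 21.1% of all tested genes.

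These calls depended on the adult library that stands apart, which is in neither group but widens the spread that all groups share. Without it, 5 genes passed: Isg15 (adjusted p = 0.0108), Ifitm3 (0.0118), Bst2 (0.0260), Irf7 (0.0359) and B2m (0.0456), against 2.16% of all tested genes that were higher. The same 5 passed when only the 4 libraries compared were fitted, with adjusted p from 0.00917 to 0.0401, against 2.32% of all tested genes that were higher. The log2 changes are the same in all 3 fits. Leaving out the adult library was chosen after its values were seen.

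Of 40 other interferon-stimulated genes, 3 rose in KO7, where 3.02% of all tested genes were higher, and none fell, and their median log2 change was 0.25. Rsad2, which encodes the antiviral enzyme viperin, had 1.51 and 1.86 FPKM in KO7, against 0.299 and 0.705 FPKM in wild type (0.85, adjusted p = 0.0226). Ifitm1 had 16.2 and 14.6 FPKM in KO7, against 6.71 and 7.92 FPKM in wild type (0.98, adjusted p = 0.0469), and Parp9, an ADP-ribosyltransferase partner of Dtx3l, had 1.28 and 1.82 against 0.510 and 0.628 FPKM (0.69, adjusted p = 0.0353). None of the other class I, loading, class II, receptor, signalling or sensing genes passed.

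Markers of other cells differed in the same libraries. Of 10 meningeal fibroblast markers, a list that includes the imprinted gene Igf2, 8 rose in KO7, and their summed level was 316 and 276 FPKM in KO7, against 105 and 162 FPKM in wild type. Of 5 tested perivascular macrophage markers 2 rose (sums of 49.2 and 41.2 against 17.1 and 18.8 FPKM), of 10 pericyte and smooth muscle markers 4, of 12 endothelial markers 3 (161 and 145 against 87.0 and 93.4 FPKM), and of 14 microglial markers 2 (166 and 135 against 101 and 113 FPKM). Erythroid markers summed to 2641 and 2478 FPKM in KO7, against 95.01 and 520 FPKM in wild type. Their part in the interferon-induced and class I differences was not tested.

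In E19.5 KO2 none of the 9 passed against wild type, where 1.28% of all tested genes did. Isg15 had 5.19 and 3.07 FPKM in KO2, against 0.758 and 0.941 FPKM in wild type (log2 change 1.44, interval 0.40 to 2.49, adjusted p = 0.169), and the groups did not overlap. Its change ranked 49 of 14322 from the highest. H2-D1 had 21.7 and 15.1 FPKM in KO2, against 9.68 and 13.3 FPKM in wild type (0.63, interval 0.13 to 1.12, adjusted p = 0.202). B2m had 41.1 and 42.2 against 28.2 and 30.2 FPKM (0.50, adjusted p = 0.341), and H2-K1 5.15 and 2.80 against 2.19 and 2.34 FPKM (0.57, adjusted p = 0.475). In all, 6 genes had both KO2 libraries above both wild-type libraries, against 27.3% of all tested genes: Irf7, Isg15, Bst2 and the 3 class I genes.

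Ifit3 had both KO2 libraries below wild type, at 0.341 and 0.218 against 0.395 and 0.422 FPKM (-0.14, adjusted p = 0.916), as 29.9% of all tested genes did. Ifitm3 and Ifit1 overlapped between the groups, with changes of 0.41 and -0.02. At an unadjusted p under 0.05, Isg15 and H2-D1 passed, against 16.1% of all tested genes. Without the first adult wild-type library Isg15 passed (adjusted p = 0.0198, where 0.707% of all tested genes were higher). With the 4 compared libraries alone Isg15 (adjusted p = 0.0422) and B2m (0.0444) passed, where 1.46% of all tested genes were higher. Of the other 40 interferon-stimulated genes 1 rose, where 0.88% of all tested genes were higher, namely Rsad2, with 1.71 and 1.80 FPKM in KO2 against 0.299 and 0.705 FPKM in wild type (0.89, adjusted p = 0.0354). The first KO2 library, the one with 1.498 FPKM of Xist, was the higher of the pair for all 6 interferon-induced genes and for H2-K1 and H2-D1. Of 14 microglial markers 1 rose in KO2 (sums of 138 and 142 FPKM in KO2, against 101 and 113 FPKM in wild type), and of 5 erythroid markers 2 rose. Of 12 endothelial markers 2 rose (sums of 134 and 123 FPKM in KO2, against 87.0 and 93.4 FPKM in wild type), of 8 oligodendrocyte markers 2 (250 and 172 against 102 and 124 FPKM), of 8 astrocyte markers 1 (525 and 488 against 233 and 279 FPKM) and of 6 neutrophil and monocyte markers 1, while 1 of 10 meningeal fibroblast markers fell. Their part in the values was not tested.

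**Figure D4:**
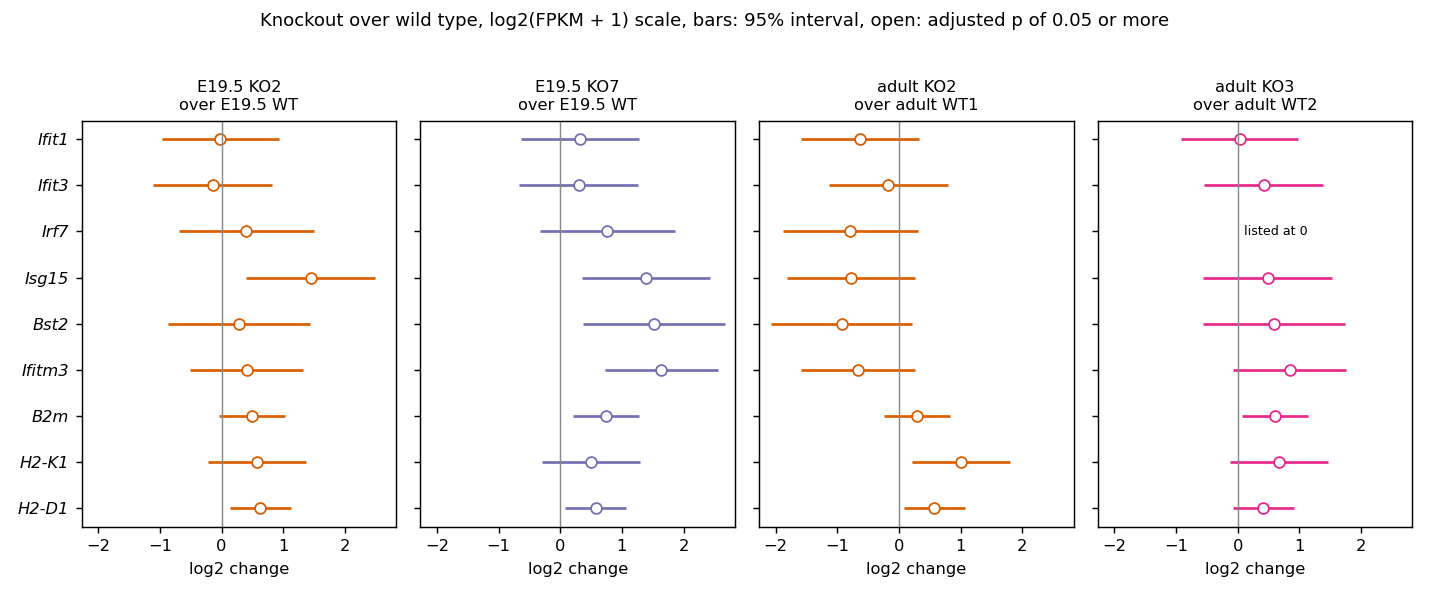
Log2 change of each knockout over the wild type it was compared with, on the log2(FPKM + 1) scale, for the 9 genes, with bars for the 95% interval of the fit of all 14 libraries. All symbols are open because no adjusted p is under 0.05, and E19.5 KO7 has all 9 estimates above 0.

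KO7 and KO2 at E19.5 were compared directly, since their comparisons with wild type share the wild-type libraries. None of the 9 passed, against 5.63% of all tested genes. Bst2 had 10.7 and 9.31 FPKM in KO7, against 4.03 and 3.31 FPKM in KO2 (log2 change 1.24, interval 0.09 to 2.38, adjusted p = 0.191), and Ifitm3 had 45.5 and 36.9 FPKM in KO7, against 19.4 and 14.7 FPKM in KO2 (1.23, interval 0.32 to 2.15, adjusted p = 0.112). Isg15 had 4.27 and 3.44 FPKM in KO7, against 5.19 and 3.07 FPKM in KO2 (-0.05, interval -1.10 to 0.99), and H2-K1 and H2-D1 had changes of -0.07 and -0.06 with overlapping groups. The KO7 libraries were both above the KO2 libraries for 6 genes, against 30.8% of all tested genes, namely 5 interferon-induced genes and B2m. At an unadjusted p under 0.05, Bst2 and Ifitm3 passed, against 22.3% of all tested genes. They also passed without the first adult wild-type library (adjusted p = 0.0450 and 0.0285, with 2.7% of all tested genes higher) and with the 4 compared libraries alone (0.00919 and 0.0116, with 3.76% higher). The sensing genes Unc93b1 (0.90, adjusted p = 0.00713) and Tmem173 (0.59, adjusted p = 0.0182) rose in KO7 relative to KO2, as did 9 of 10 meningeal fibroblast, 4 of 10 pericyte and smooth muscle, 3 of 5 perivascular macrophage and 2 of 12 endothelial markers. Of 12 endothelial markers 1 fell, as did 4 of 8 astrocyte and 4 of 8 oligodendrocyte markers. The perivascular macrophage sums were 49.2 and 41.2 FPKM in KO7, against 16.2 and 16.1 FPKM in KO2. The erythroid sums were 2641 and 2478 FPKM in KO7, against 405 and 738 FPKM in KO2. The part of these cells in the values was not tested. Of 5 sex-linked genes 4 were higher in KO7, so sex and genotype cannot be told apart here either.

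In adults, KO2 was compared with wild-type set 1, whose first library stands apart. None of the 9 passed, against 0.154% of all tested genes (22 genes), and 2 passed at an unadjusted p under 0.05, H2-K1 and H2-D1, against 7.34% of all tested genes. H2-K1 had 20.9 and 14.6 FPKM in KO2, against 8.58 and 7.81 FPKM in wild type (log2 change 1.01, interval 0.21 to 1.80, adjusted p = 0.544), and H2-D1 had 24.4 and 34.3 against 20.04 and 18.3 FPKM (0.57, interval 0.07 to 1.07, adjusted p = 0.620). These were the only 2 of the 9 with groups that did not overlap, both higher in KO2, as in 30% of all tested genes. B2m had 124 and 158 FPKM in KO2, against 154 and 84.0 FPKM in wild type, and its groups overlapped (0.29, adjusted p = 0.875).

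The 6 interferon-induced genes all had estimates below 0 in adult KO2, and their sign rested on 1 library. Bst2 had 4.84 and 4.91 FPKM in KO2, against 21.96 and 4.45 FPKM in wild type (-0.93, interval -2.07 to 0.22, adjusted p = 0.776). Irf7 had 1.27 and 1.84 against 8.55 and 1.01 FPKM (-0.79), and Isg15 3.05 and 4.27 against 14.999 and 2.91 FPKM (-0.78). Ifitm3, Ifit1 and Ifit3 had changes of -0.66, -0.63 and -0.17. In each of the 6 the KO2 libraries lay between the 2 wild-type libraries. Without the first wild-type library all 6 estimates were above 0, from 0.11 for Bst2 to 0.75 for Ifit3, and none passed (0.007% of all tested genes did). Without the second, which leaves 1 wild-type library, Irf7 (-1.91, adjusted p = 0.0154), Ifit1 (-1.59, adjusted p = 0.0260) and Isg15 (-1.79, adjusted p = 0.0485) passed as lower, against 0.056% of all tested genes. With both wild-type sets as 1 group of 4, Ifit3, Irf7 and Ifitm3 had estimates above 0 (0.22, 0.28 and 0.01) and the other 3 below it. The Irf7 estimate there includes the zeros of set 2, which may be removed low values. None of 40 other interferon-stimulated genes passed in adult KO2. The summed level of microglial markers was 390 and 429 FPKM in KO2, against 442 and 379 FPKM in wild type. Choroid plexus markers summed to 1178 and 124 FPKM in KO2, against 344 and 170 FPKM in wild type, and erythroid markers to 543 and 531 FPKM in KO2, against 24.7 and 356 FPKM in wild type. The first KO2 library, with the higher choroid plexus sum, also had the higher H2-K1 and the lower H2-D1 level of the pair. The part of these cells in the values was not tested.

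The difference of the KO2 effect between adult and E19.5 was tested as an interaction. None of the 9 passed, against 0.0628% of all tested genes. Isg15 had the largest estimate among the 9 (-2.22, interval -3.69 to -0.74, adjusted p = 0.190) and was the one gene past an unadjusted p of 0.05, as 14.8% of all tested genes were. Without the first adult wild-type library its estimate was -1.20 and it did not pass (adjusted p = 0.293, with 0.014% of all tested genes passing). Without the second, which again leaves 1 adult wild-type library, Isg15 (-3.23, adjusted p = 0.00779) and Irf7 (-2.32, adjusted p = 0.0116) passed, as 0.056% of all tested genes did with a negative difference. For H2-K1, higher in KO2 at both stages by estimate, the interaction was 0.44 (interval -0.68 to 1.56).

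Adult KO3 was compared with wild-type set 2, the set whose low values are listed at 0 in the same way. None of the 9 passed, against 22.1% of all tested genes, and 8 of the 9 estimates were above 0. B2m had 141 and 111 FPKM in KO3, against 91.4 and 72.9 FPKM in wild type (log2 change 0.61, interval 0.07 to 1.14, adjusted p = 0.0895). Ifitm3 had 29.8 and 44.2 FPKM in KO3, against 21.0 and 18.6 FPKM in wild type (0.85, adjusted p = 0.156), and H2-D1 had 33.2 and 44.6 against 26.3 and 31.0 FPKM (0.42, adjusted p = 0.190). For these 3, and for Isg15 (3.13 and 2.91 against 1.58 and 2.18 FPKM) and Ifit3 (7.13 and 3.73 against 3.55 and 3.71 FPKM), both KO3 libraries lay above both wild-type libraries, as for 29.2% of all tested genes.

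H2-K1 had 12.5 and 29.7 FPKM in KO3, against 8.81 and 15.5 FPKM in wild type (0.68, adjusted p = 0.186), and Bst2 4.10 and 9.86 against 3.11 and 4.99 FPKM (0.59, adjusted p = 0.433), so their groups overlapped. Both genes were higher in the second library of either group. Ifit1 had 2.30 and 1.42 against 1.75 and 1.76 FPKM (0.04), and Irf7 was listed at 0 in all 4 libraries, so no fold is given. B2m was the one gene past an unadjusted p of 0.05, against 39.4% of all tested genes, and it passed after adjustment without the first library of wild-type set 1 (adjusted p = 0.0382, with 11.6% of all tested genes higher). Without the first KO3 library the log2 change of H2-K1 was 1.27. That value rests on the second KO3 library alone, with 29.7 FPKM of H2-K1. Its neutrophil and monocyte sum was 791 FPKM, against 29.9 FPKM in the first, and the part of these cells was not tested. The count over all genes was not stable either, since leaving out 1 library at a time gave 8 to 6773 genes.

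Other antigen presentation genes did pass in adult KO3 in the fit of all 14 libraries, where 13.9% of all tested genes were higher. The counts over 40 interferon-stimulated genes are near that share. Over all genes, 3164 passed in that fit, and 6 when only the compared libraries were fitted. Whether the genes counted below also pass in the smaller fit is not given, so their calls are not firm. Of 16 loading genes 5 rose and none fell, led by Psme1 (43.5 and 69.4 FPKM in KO3, against 28.3 and 21.6 FPKM in wild type, log2 change 1.12, adjusted p = 0.0111), Psme2 (1.06) and Psmb8 (0.98). Of 6 class II genes 3 rose, H2-Ab1 (1.01), H2-Eb1 (0.66) and the invariant chain Cd74, with 13.8 and 14.4 FPKM in KO3 against 9.20 and 8.57 FPKM in wild type (0.61, adjusted p = 0.0180). Of 40 other interferon-stimulated genes 5 rose, among them the chemokine Ccl5 (1.05), Ifitm1 (1.10) and Ifi35 (0.56). Psmb8, counted above as a loading gene, is among these 5 too. The RNA-editing enzyme Adar fell (-0.51, adjusted p = 0.0310). Of 14 microglial markers 6 rose, and their summed level was 351 and 422 FPKM in KO3, against 264 and 197 FPKM in wild type. The neutrophil and monocyte sum was 29.9 and 791 FPKM in KO3, against 14.58 and 19.5002 FPKM in wild type. Erythroid markers summed to 965 and 1008 FPKM in KO3, against 117 and 60.8 FPKM in wild type. The sums of meningeal fibroblast markers and of pericyte and smooth muscle markers overlapped between the groups. The part of these cells in the KO3 values was not tested.

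The adult wild-type sets also differed from each other. Set 2 was lower than set 1 for 3 of 9 genes, against 14% of all tested genes. Isg15 had 1.58 and 2.18 FPKM in set 2, against 14.999 and 2.91 FPKM in set 1 (log2 change -1.47, adjusted p = 0.0490). Ifitm3 had 21.0 and 18.6 against 90.4 and 29.4 FPKM (-1.34, adjusted p = 0.0424). The remaining gene was Irf7, listed at 0 in set 2, against 8.55 and 1.01 FPKM in set 1. Its zeros may be removed low values, so the size of its fall is unknown. Without the first library of set 1, Isg15 (-0.45, adjusted p = 0.306) and Ifitm3 (-0.55, adjusted p = 0.305) did not pass, where 6.4% of all tested genes were lower. Without the second library of set 1, 7 genes passed as lower, against 7.7% of all tested genes. None passed without the first library of set 2, where 9.32% of all tested genes were lower, or without the second, where 6.1% were. With the 4 compared libraries alone, Irf7, Isg15 and Ifitm3 did not pass (adjusted p from 0.0890 to 0.163). H2-D1 had 26.3 and 31.0 FPKM in set 2, against 20.04 and 18.3 FPKM in set 1 (0.55, adjusted p = 0.103, and 0.0408 with the 4 compared libraries alone), so its estimate lay the other way from those of the interferon-induced genes. Of 14 microglial markers 10 were lower in set 2.

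The likeness of the genes across libraries was described by correlation. The median Pearson's r of log2 levels was 0.838 over the 3 pairs of class I genes and 0.669 over the 15 pairs of interferon-induced genes (n = 14 libraries, which share stage and set). Without the first library of wild-type set 1 these medians were 0.883 and 0.368 (n = 13), and the lowest interferon-induced pair was at -0.28. Over the 18 pairs of a class I gene with an interferon-induced gene the median was 0.435 (n = 14). Without that library it was 0.492 (n = 13), above the median within the interferon-induced genes. The highest of the 18 was Ifit3 with B2m at 0.951 (n = 14), against 0.903 for the highest class I pair. The genes whose levels were most like the mean of the 6 interferon-induced genes over 14 libraries were Rtp4 (r = 0.947), Ifi27l2a (0.915), Oasl2 (0.875), Fcgr1 (0.873) and Kcns1 (0.861). Those most like the mean of the class I genes were Cgrrf1 (0.969), Thrsp (0.964), Sphk2 (0.961), Crh (0.960) and Csrnp1 (0.959). On deviations from the 7 group means, Rtp4 was again the most like the interferon-induced genes (0.968), and Dmrta2 the most like the class I genes (0.931). Close behind Rtp4 were Emr1 (0.959), Dmp1 (0.959), Hist1h2bh (0.956) and Gna15 (0.954), which are not on the interferon-stimulated list. Between the libraries of wild-type set 1 the 6 genes differed by 1.59 (Ifitm3) to 2.25 (Irf7) log2 units, more than in any other pair. That pair therefore weighs most in these deviations. These values describe likeness over libraries that differ in stage and carry no test.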

How the data were processed

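The deposited values are FPKM per gene that the authors made from poly(A) RNA reads of 14 brain libraries. CASAVA, TopHat2 2.1.1, Cufflinks 2.2.1 and mm9 are named per the submitters' processing notes; the annotation, the filters and whether strand was used are not stated in those notes or the labels. The header word FPKM stands with 10 libraries and is missing for the 4 of KO3 and wild-type set 2, whose values were taken to be FPKM too. The 2 rows with no gene name were left out. FPKM gave no steps of whole reads, so depth and counting error are unknown.

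Genes with 1 FPKM or more in 2 or more libraries were tested on log2(FPKM + 1) with limma 3.58.1 in R 4.3.3 (7 group means, trended prior, residual df 7, 2-sided, Benjamini-Hochberg over all tested genes, threshold 0.05), and the script was tested on simulated data. Replicate numbers were not taken as pairs. The replicate differences of 2 groups correlated at -0.333 to 0.233, which cannot settle whether libraries were paired. Symbols placed 258 of the 265 list genes, synonyms 4 more, and 3 had no row. Genes named from lists were at most 4 per list and comparison, those passing with the smallest p. Promoters were read from RefSeq (GRCm38.p6). The 9 genes, the lists and the tests were chosen with earlier results of these data known. Leaving out the first library of wild-type set 1 where it is in neither group was chosen after its values were seen.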

Additional observations from a re-analysis of the deposited data

Results flagged for a closer look

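For the 4 adult wild-type libraries, the gap between the highest FPKM and the next was divided by the range. The same was done for the lowest FPKM, and the larger ratio was kept. This ratio exceeded Dixon's 95% critical value for 7 of the 9 genes, each time at the highest value. Chance flags about 1 in 20 groups when the 4 values come from 1 normal distribution. FPKM need not be normal, the libraries join 2 sets, and both Irf7 values of set 2 are listed at 0. The 1 in 20 therefore need not hold here. On the log2(FPKM + 1) scale of the tests these ratios are lower, and flags on that scale were not counted. Genes of the same library are not independent. For 6 of the 7 genes the high library was the first of set 1. The ratio was 0.846 for Ifit1, 0.952 for Ifit3, 0.881 for Irf7, 0.901 for Isg15, 0.900 for Bst2 and 0.850 for Ifitm3. For H2-K1 the high library was the second of set 2, with a ratio of 0.870.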

How the results depend on the processing

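Of 1125 recomputed log2 changes of the 9 genes, 1050 kept their direction where called and their side of the threshold. Of the rest, 36 lost the call, 38 gained one and 1 reversed. Most of the 1125 belong to results that were not called. Those count as kept while they stay uncalled, even where the sign changed, so the share kept does not measure how firm the called results are. The reversed one was adult against E19.5 wild-type Irf7, at -0.016 (adjusted p = 0.966). There the wild-type sets were pooled without the first library of set 1, a fit that includes the zeros of set 2. Fitting only the compared libraries gave 2 genes for E19.5 KO2, where 1.46% of all tested genes were higher, and 5 for KO7 (2.32%). It gave 2 for KO7 against KO2 (3.76%) and 6 for stage in wild type (24.6%). Between the sets it gave 1, H2-D1, higher in set 2, in place of the 3 that were lower. For this last count and those in the rest of this paragraph no share of all tested genes is given, so they are not read as results about the 9 genes. Quantile scaling gave 1 for KO7, the pooled fit without the first library of set 1 gave 1 for KO3, and dropping the filter gave 1 between the sets (Irf7) and 8 for stage in wild type (all but Bst2, adjusted p = 0.0524). Leaving out 3 libraries that stand apart together (the first E19.5 KO2, the second KO3 and the second of set 2) gave 0 between the sets.

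Leaving out 1 library at a time gave 0 to 1 genes for E19.5 KO2, 0 to 5 for KO7, 0 to 2 for KO7 against KO2, 0 to 3 for adult KO2, 0 to 1 for KO3, 6 to 8 for stage in wild type, 3 to 7 for stage in KO2, 0 to 2 for the stage difference and 0 to 7 between the sets. With the replicate number as a block, the counts were 9 for stage in wild type and 5 for stage in KO2. They were 3 between the sets and 0 elsewhere. Whether the replicate numbers pair the libraries is not known. For the counts in this paragraph no share of all tested genes is given, so they are not read as results about the 9 genes.

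With 2 libraries per group, intervals are wide, and depth is unknown. Over all genes, KO3 calls numbered 3164, and 6 when only its 4 libraries were fitted.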
